A study of Mus musculus with 816 samples.

Results

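Primary mouse microglia that had been kept for 72 h with LPS_hi, lipopolysaccharide at 0.0001 µg/µl and no other agent, were compared with microglia left untreated for the same 72 h. The cultures were chosen by their labels, as the 13 cultures labelled LPS_hi at this dose and duration and the 25 labelled None at 72 h, of 784 cultures and 816 samples in the series. The series measured the transcriptome of cultured microglia under a panel of stimuli of innate immunity, with a smaller set of microglia taken from mouse brain. The cells were bought as primary neonatal mouse microglia, grown in 96-well plates and given the stimulus in fresh medium some days after plating, and each culture is 1 well read by 3′-end RNA-seq. Neither strain nor sex of the source mice is given in the sources used here.

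All 38 cultures came from 1 commercial cell lot. They sat on 4 culture plates, which held 2, 2, 6 and 3 LPS_hi cultures beside 4, 10, 6 and 5 untreated cultures, so every fold change was fitted with the plate as a block. Nothing in the labels says that wells of a group came from separate animals, and p-values therefore measure the spread between wells of this lot. Further groups were used beside them, written here with their numbers of cultures: LPS_lo at 72 h (lipopolysaccharide at 0.00001 µg/µl, 11 cultures), P3C at 72 h (the TLR2 ligand of the study at 0.001 µg/µl, 6 cultures), LPS_hi at 24 h (18 cultures) with untreated at 24 h (40 cultures), and LPS_hi at 4 h (7 cultures), for which no untreated culture is labelled.

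Lipopolysaccharide of the bacterial outer membrane is recognised by TLR4 together with its co-receptors MD-2 (the product of Ly96) and CD14. One branch of the signal runs through MyD88 to NF-kB and switches on cytokines, chemokines and their own inhibitors. The other branch runs through TRIF and IRF3 to type I interferon, which acts back on the cells and switches on antiviral genes, whereas TLR2 uses the MyD88 branch.

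Read depth, estimated from the smallest steps of the values, ran from 2.65 to 19.003 M reads (1 M being 1000000) in the LPS_hi cultures (median 5.34) and from 1.45 to 14.4 M reads in the untreated ones (median 5.89). Fewer genes lay above 5 CPM (reads counted for a gene in every 1000000 mapped reads) with LPS_hi, 6560 to 8516 against 7221 to 9242. The share of CPM in mitochondrially encoded genes had a median of 1.09% with LPS_hi and 3.08% without. Microglial markers summed to 1395 to 4691 CPM with LPS_hi and 1481 to 8314 CPM untreated, whereas astrocyte, neuron, T cell, B cell, NK cell, monocyte and neutrophil markers each summed to at most 62.95 CPM in every culture. Oligodendrocyte, endothelial, fibroblast and dendritic markers reached 119.5 CPM at most, and those of perivascular macrophages 91.4 to 691 CPM untreated and 8.81 to 1452 CPM with LPS_hi, mostly from Pf4, a chemokine that was not called (log2FC -0.70 ± 0.43 SE, adjusted p = 0.26, limma). In that list Mrc1 was called lower (log2FC -3.70). Among markers of other cell types, Mbp (log2FC -1.45), Flt1 (log2FC -1.91) and Zbtb46 (log2FC -1.28) were called lower and Tubb3 (log2FC 1.56) higher, and their part in the results was not tested. Among the defining markers, Mog, Olig2, Sox10, Cldn5, Pdgfrb, Elane, Camp, Ngp, Lyve1, Klrd1 and Gzma were at 0 in all 38 cultures. In bulk cultures, fewer cells of a kind and less RNA per cell cannot be told apart.

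Certain wells stood apart and touch the results below. Untreated replicate 10 (plate 2, 1.88 M reads) was the highest untreated culture for 27 of the 32 type I interferon response genes. Its summed level of that list was 5797 CPM against 584 to 1682 CPM in the other 24 untreated cultures and 6982 to 12048 CPM with LPS_hi, and Ifit3 stood at 1538 CPM there against at most 187 in the others. Tnf, at 123 CPM, was also highest there among untreated cultures but below 12 of 13 LPS_hi cultures, and Il1b, at 8.50 CPM, lay below the untreated maximum of 10.4. Wells also differed by their position on the plate: 10 of 13 LPS_hi cultures and 15 of 25 untreated cultures came from edge or corner wells. The 3 LPS_hi cultures from middle wells, all on plate 3, had lower Tnf (85.8 to 150.2 CPM) than the 10 from edge wells (303 to 763 CPM), and Cxcl2 was at 0 in all 3. Those 3 were also amplified in a pool of libraries that held no untreated culture. On plate 2 both LPS_hi cultures were in edge wells and all 10 untreated cultures in middle wells, so on that plate treatment and position cannot be told apart.

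Of 45581 genes listed, 11108 had more than 5 CPM in at least 4 of the 38 cultures and were tested. With limma and Benjamini-Hochberg adjustment, counting a gene as changed where the adjusted p was below 0.05 and its log2 fold change (log2FC, on the log2(CPM + 1) scale) was 1 or more in size, 634 genes were higher with LPS_hi (5.71% of genes tested) and 1209 were lower (10.9%). The median log2 fold change of all genes tested was -0.22. Of the genes called higher, 573 had the same sign on each of the 4 plates, as had 973 of those called lower and 1997 of the 9265 not called. The filter favours differences at low levels: 538 of the genes tested would not have passed in the untreated cultures alone and 2170 not in the LPS_hi cultures alone. Because 1 CPM is added before the logarithm, the fold changes of low genes are understated. Leaving out untreated replicate 10 gave 634 and 1198 calls. With edge and corner wells only, 550 genes were higher and 648 lower, and 476 of the higher and 589 of the lower genes were called in both fits.

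**Figure D1:**
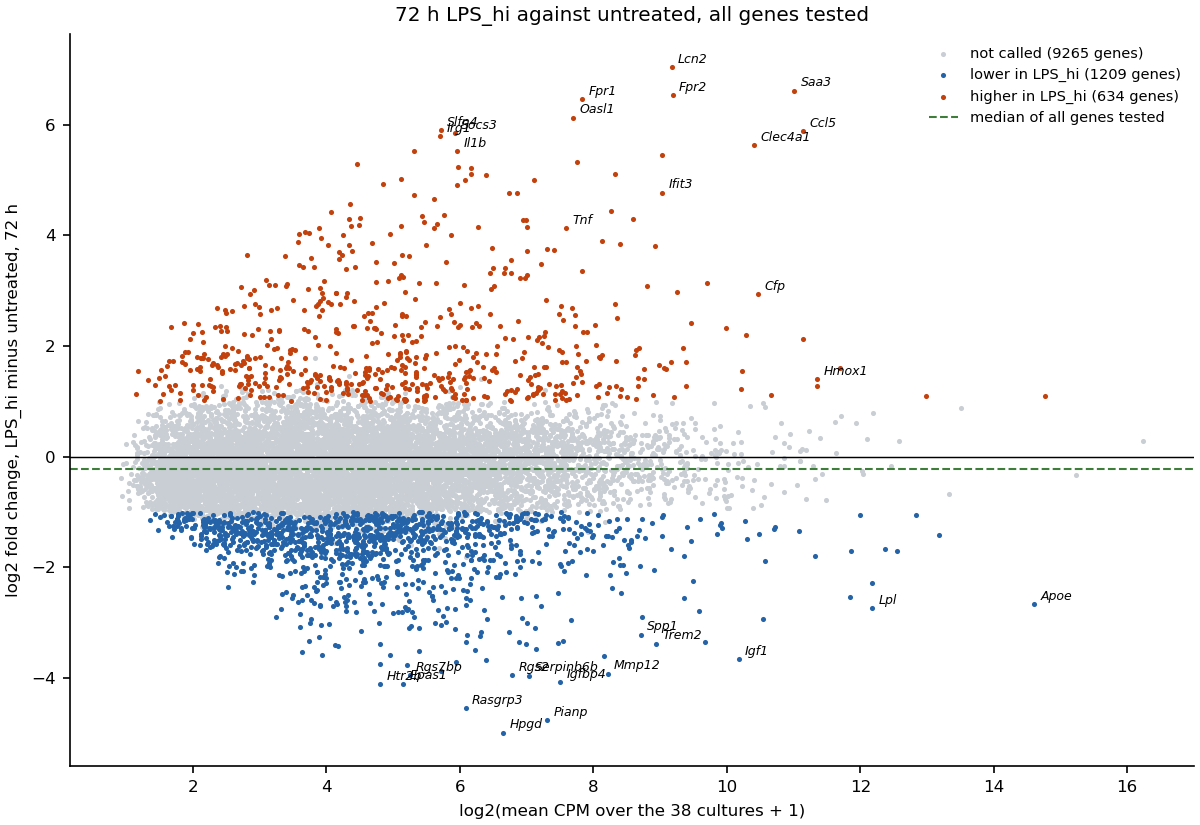
Each point is 1 of the 11108 genes tested, with its mean level over the 38 cultures on the x axis (log2 of CPM + 1) and its log2 fold change with LPS_hi for 72 h on the y axis. Orange points are the 634 genes called higher, blue points the 1209 called lower and grey points the 9265 not called; the dashed line marks the median of -0.22. Lcn2, Saa3, Fpr2 and Fpr1 are the uppermost labelled genes, and Apoe is the labelled gene with the highest level among those that fell.

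The 6 genes that the study uses as hubs of its gene modules or as markers were all higher after 72 h of LPS_hi. Tnf, the archetypal inflammatory cytokine, ranged from 0.209 to 123 CPM with a median of 52.6 in the untreated cultures and from 85.8 to 763 CPM with a median of 602 with LPS_hi. In all, 12 of 13 LPS_hi cultures lay above every untreated one, and the fitted log2 fold change was 4.13 ± 0.40 SE, adjusted p = 5.6e-11 with limma. Il1b, which encodes the precursor of interleukin-1 beta, ranged from 0 to 10.4 CPM with a median of 2.30 in the untreated cultures and from 32.8 to 563 CPM with a median of 127 with LPS_hi. Here no LPS_hi culture reached down into the untreated range (log2 fold change 5.53 ± 0.37 SE, adjusted p = 7.4e-16). Clec4e, a C-type lectin receptor for mycobacterial glycolipid, ranged from 0.0797 to 32.6 CPM with a median of 5.14 in the untreated cultures and from 28.8 to 301 CPM with a median of 158 with LPS_hi, with 12 of 13 LPS_hi cultures above all untreated ones (log2 fold change 4.91 ± 0.37 SE, adjusted p = 2.7e-14).

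Irak3, an inhibitor of the kinases downstream of the TLRs, ranged from 0.132 to 25.5 CPM with a median of 10.6 in the untreated cultures and from 25.5 to 288 CPM with a median of 158 with LPS_hi. Its lowest LPS_hi culture, a middle well of plate 3, lay at the level of the highest untreated culture and the other 12 lay above it (log2 fold change 4.01 ± 0.36 SE, adjusted p = 3.8e-12 by limma). Naaa, an acid amidase of lysosomes, ranged from 0 to 14.3 CPM with a median of 2.33 in the untreated cultures and from 2.13 to 20.8 CPM with a median of 13.7 with LPS_hi. It was the lowest of the 6 genes in level with LPS_hi and its groups overlapped, with 6 of 13 LPS_hi cultures above all untreated ones (log2 fold change 2.31 ± 0.37 SE, adjusted p = 4.1e-06). Ifit3, an interferon-induced antiviral gene, ranged from 0.835 to 1538 CPM with a median of 77.4 in the untreated cultures and from 504 to 1998 CPM with a median of 1371 with LPS_hi. With untreated replicate 10 included, 4 of 13 LPS_hi cultures lay above all untreated ones; the next highest untreated culture was at 187 CPM, below each of the 13 (log2 fold change 4.77 ± 0.40 SE, adjusted p = 7.4e-13). Within the plates 1 to 4 the log2 differences of Ifit3 were 3.72, 3.51, 5.15 and 6.05, those of Tnf 3.98, 3.15, 3.95 and 5.39 and those of Il1b 6.34, 3.44, 5.30 and 7.19.

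**Figure D2:**
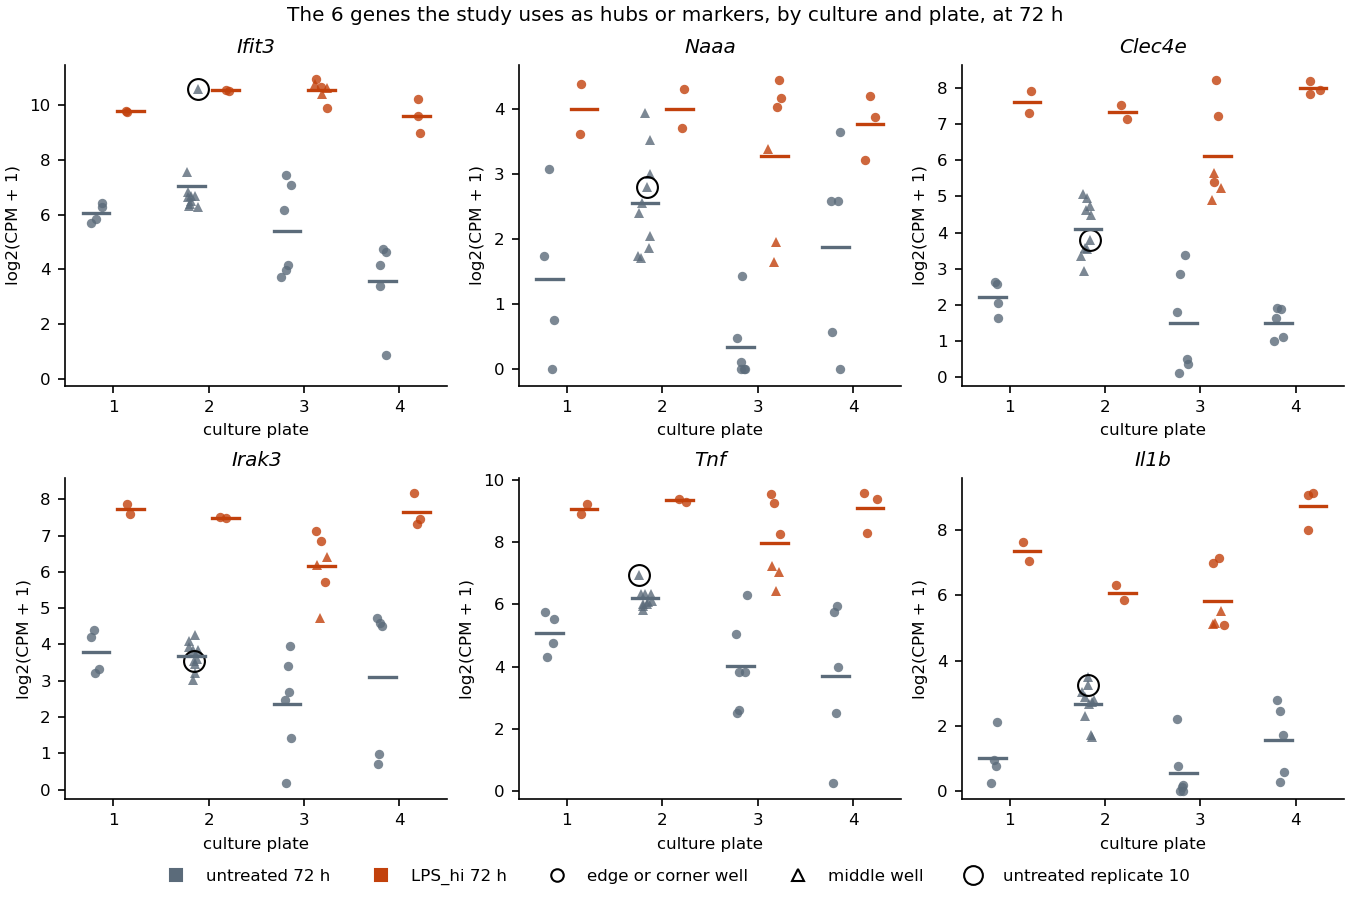
Each point is 1 culture at 72 h, plotted as log2(CPM + 1) against its culture plate for the 6 genes; grey points are the 25 untreated cultures, orange points the 13 LPS_hi cultures, circles edge or corner wells, triangles middle wells, and bars the plate means. The ring marks untreated replicate 10, which reached 1538 CPM of Ifit3, and the orange triangles of plate 3 lie lowest among the LPS_hi cultures for Tnf.

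Ranked by fold change, the 10 genes that rose most all had every LPS_hi culture above every untreated one, which held for 59 of the genes tested (0.531%). Several of their products act outside the cell or at its surface. Lcn2, which binds bacterial siderophores, ranged from 2.87 to 62.8 CPM with a median of 12.8 in the untreated cultures and from 255 to 3171 CPM with a median of 1375 with LPS_hi (log2 fold change 7.04 ± 0.30 SE, adjusted p = 7.4e-22, limma). Saa3, an acute-phase protein, ranged from 14.8 to 558 CPM with a median of 91.9 in the untreated cultures and from 1347 to 11830.5 CPM with a median of 5476 with LPS_hi (log2 fold change 6.62). The formyl peptide receptors sense bacterial peptides, and both were among the 10: Fpr2 went from a median of 16.9 to 1683 CPM (log2 fold change 6.54) and Fpr1 from 7.90 to 627 CPM (log2FC 6.47). Clec4a1, a C-type lectin, had medians of 184 and 3408 CPM (log2FC 5.64). The chemokine Ccl5 stood at a median of 5057 CPM with LPS_hi against 199.6 (log2FC 5.89).

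The other genes of the 10 act within the cell. Irg1 encodes the enzyme that makes itaconate and had medians of 2.64 and 146 CPM (log2 fold change 5.80). Socs3, which restrains cytokine receptors that signal through STAT3, had medians of 2.20 and 175 CPM (log2FC 5.84). Oasl1 and Slfn4 are interferon-induced, with log2 fold changes of 6.13 and 5.91. For genes with close copies, such as the Slfn genes, the H2 class I genes and Bcl2a1a, the division of reads among the copies by the quantification is uncertain.

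The 10 genes that fell most included enzymes and regulators of lipid, serotonin and G-protein signalling. Hpgd, which inactivates prostaglandin E2, ranged from 4.13 to 309 CPM with a median of 124 in the untreated cultures and from 0 to 23.2 CPM with a median of 2.01 with LPS_hi (log2 fold change -4.98 ± 0.37 SE, adjusted p = 2.4e-14 by limma). With LPS_hi, 10 of 13 cultures lay below every untreated one. Htr2b, a serotonin receptor, ranged from 16.8 to 97.2 CPM with a median of 38.1 in the untreated cultures and from 0 to 5.14 CPM with a median of 0.996 with LPS_hi (log2 fold change -4.11 ± 0.29 SE, adjusted p = 5.6e-15). Rgs2, a brake on G-protein signalling, ranged from 80.6 to 253 CPM with a median of 159 in the untreated cultures and from 0 to 31.8 CPM with a median of 12.6 with LPS_hi (log2FC -3.94). For both Htr2b and Rgs2 the groups did not overlap, and the same held for Igfbp4, a binding protein of insulin-like growth factors, with medians of 217 CPM untreated and 7.66 with LPS_hi (log2FC -4.08). All LPS_hi cultures lay below all untreated ones for 25 of the genes tested (0.225%). The remaining 6 were Pianp (log2FC -4.76), Rasgrp3 (log2FC -4.55), Epas1, the hypoxia-inducible factor 2 alpha (log2FC -4.10), Serpinb6b (log2FC -3.96), Rgs7bp (log2FC -3.95) and the macrophage elastase Mmp12 (log2FC -3.92), each with overlapping groups.

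Of 20 genes for the TLR4 receptor and its adaptors, 19 were tested, 3 were higher (5.71% of all genes tested were) and none was lower, and their median log2 fold change was -0.0026. Tlr4 had medians of 12.1 CPM untreated and 17.7 CPM with LPS_hi (log2 fold change 0.58 ± 0.42 SE, adjusted p = 0.35), and Ly96 had medians of 4.15 and 5.42 CPM (log2FC -0.13 ± 0.36 SE, adjusted p = 0.83), neither of which passed the limma test. The co-receptor Cd14 ranged from 7.65 to 211 CPM with a median of 45.7 in the untreated cultures and from 98.96 to 365 CPM with a median of 150.0 with LPS_hi (log2 fold change 2.37 ± 0.24 SE, adjusted p = 1.6e-10). Ikbke, a kinase on the interferon branch, had a log2 fold change of 2.38. Itgam, a subunit of complement receptor 3, went from a median of 122 to 386 CPM without overlap (log2FC 1.55).

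Among 18 NF-kB subunits and inhibitors, 10 rose and none fell, with a list median of 1.29 beside -0.22 for all genes. The largest rises were those of Nfkbiz (log2FC 3.998), an atypical IkB protein, Tnip3 (log2FC 3.62), Nfkb2 (log2FC 2.77) and Bcl3 (log2FC 2.36). Of 21 genes of negative feedback on TLR signalling, 17 were tested and 10 rose, with a median of 2.17. They were led by Socs3 and Il1rn, the interleukin-1 receptor antagonist, which had medians of 1.28 and 38.5 CPM (log2FC 4.18), and by Usp18, which removes ISG15 from proteins (log2FC 4.15). Tnfaip3, the deubiquitinase A20, had a smaller log2 fold change of 1.24 ± 0.29 SE, adjusted p = 0.0014 (limma).

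Of 27 cytokine genes, 15 were tested and 8 rose, with none lower and a median of 1.54. Of those 15, 5 would not have passed the filter on low values in the untreated cultures alone, as would 3 of the 16 chemokines and 3 of the 32 type I interferon response genes described below. Beside Tnf and Il1b, Il1a had medians of 5.94 and 245 CPM (log2 fold change 4.996) and the anti-inflammatory Il10 had medians of 0 and 15.2 CPM (log2FC 3.65), with 12 of 13 LPS_hi cultures above all untreated ones. Il6 had an untreated median of 0 CPM, its highest untreated value was 0.498 CPM, and with LPS_hi it ranged from 0 to 64.2 CPM with a median of 15.1 (log2FC 3.02 ± 0.42 SE, adjusted p = 3.5e-07). None of the 14 interferon ligand genes was tested, since each was at 0 in all 38 cultures.

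Chemokines rose as a group. Of 25, 16 were tested, 14 were higher and 1 was lower, and the list median was 2.69. Ccl2, which draws monocytes, ranged from 0 to 46.2 CPM with a median of 6.39 in the untreated cultures and from 36.4 to 425 CPM with a median of 130.1 with LPS_hi (log2FC 5.11 ± 0.38 SE, adjusted p = 3.5e-14 by limma). Ccl7 had a log2 fold change of 4.17. Cxcl2, which draws neutrophils, went with the plate and the well: its log2 differences on plates 1 to 4 were 7.60, 1.72, 1.61 and 7.92, and with LPS_hi it stood at 11.7 to 1287 CPM in the 10 edge wells and at 0 in the 3 middle wells. The part of the well in this result was not tested apart from the plate. Cxcl14 was the member that fell (log2FC -1.83 ± 0.22 SE, adjusted p = 6.8e-09), from a median of 71.8 to 35.5 CPM.

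**Figure D3:**
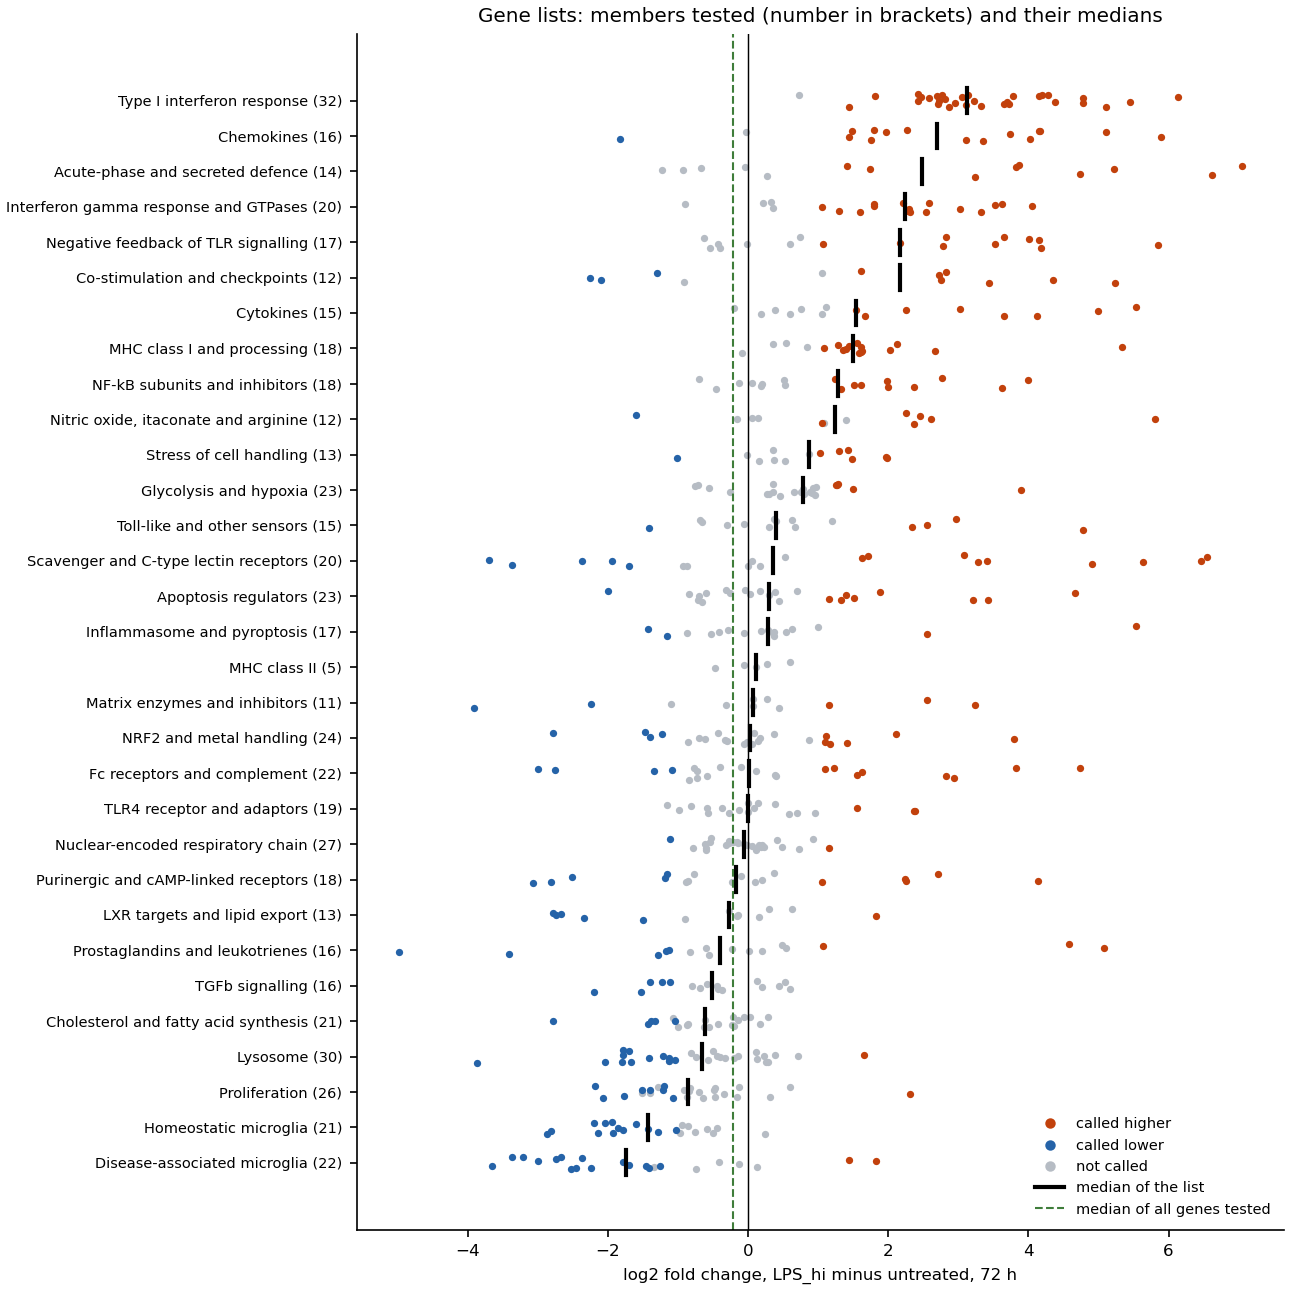
Each point is 1 tested member of a gene list, placed by its log2 fold change with LPS_hi for 72 h; lists are ordered by their median (black bar), with the number of members tested in brackets. Orange points were called higher and blue points lower, and the dashed line is the median of all genes tested. Type I interferon response genes lie highest, with a median of 3.12, and the list of disease-associated microglia lies lowest, with -1.75.

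The type I interferon response list moved most. All 32 of its genes were tested, 31 rose and none fell, and the list median was 3.12, with 2.88, 2.88, 3.49 and 3.34 on plates 1 to 4. Irf7, the transcription factor that amplifies the response, ranged from 3.60 to 185 CPM with a median of 31.7 in the untreated cultures and from 886 to 2539 CPM with a median of 1129.5 with LPS_hi (log2 fold change 5.45 ± 0.29 SE, adjusted p = 6.8e-19, limma), without overlap. Ifit1, an antiviral gene that binds foreign RNA, ranged from 2.34 to 316 CPM with a median of 28.2 in the untreated cultures and from 347 to 1174 CPM with a median of 816 with LPS_hi (log2FC 5.11), also without overlap. Zbp1, a sensor of Z-form nucleic acids, had medians of 14.2 and 251 CPM (log2FC 4.77). The count of 31 was the same without untreated replicate 10 and with edge and corner wells only.

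The windows before the transcription starts of 5 genes that rose are shown because they hold strings that resemble the binding sites of the factors of these pathways. Each is the 250 bases upstream of the RefSeq start of GRCm38.p6, written 5′ to 3′ on the gene's strand. Capitals mark matches to GAAANNGAA, a string like the interferon-stimulated response element, in Ifit3 (chr19:34583279-34583528, plus strand), Ifit1 (chr19:34640639-34640888, plus strand) and Gbp2 (chr3:142620413-142620662, plus strand), and to GGGANTTTC, a string like the NF-kB site, in Cxcl2 (chr5:90903649-90903898, plus strand) and Gpr84 (chr15:103310439-103310688, minus strand). Both strands were searched, so a match on the other strand shows its reverse complement.
Ifit3: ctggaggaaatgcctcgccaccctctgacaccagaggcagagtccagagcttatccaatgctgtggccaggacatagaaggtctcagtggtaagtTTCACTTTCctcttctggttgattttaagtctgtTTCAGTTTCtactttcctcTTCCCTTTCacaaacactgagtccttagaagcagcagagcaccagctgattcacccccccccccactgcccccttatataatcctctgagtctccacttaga
Ifit1: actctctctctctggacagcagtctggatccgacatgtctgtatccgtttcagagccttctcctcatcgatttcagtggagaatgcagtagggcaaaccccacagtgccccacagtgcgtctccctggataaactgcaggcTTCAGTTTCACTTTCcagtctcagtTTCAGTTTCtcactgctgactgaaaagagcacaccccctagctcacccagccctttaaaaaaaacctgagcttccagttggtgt
Gbp2: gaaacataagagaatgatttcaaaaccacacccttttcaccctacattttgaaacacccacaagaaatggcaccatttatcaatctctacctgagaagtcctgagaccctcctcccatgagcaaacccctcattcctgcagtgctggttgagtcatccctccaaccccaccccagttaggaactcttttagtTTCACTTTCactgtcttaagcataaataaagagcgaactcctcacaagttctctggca
Cxcl2: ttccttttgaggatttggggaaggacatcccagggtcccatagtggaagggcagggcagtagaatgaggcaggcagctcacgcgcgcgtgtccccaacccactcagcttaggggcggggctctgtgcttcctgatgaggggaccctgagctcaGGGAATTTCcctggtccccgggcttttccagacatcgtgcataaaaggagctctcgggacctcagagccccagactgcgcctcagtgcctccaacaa
Gpr84: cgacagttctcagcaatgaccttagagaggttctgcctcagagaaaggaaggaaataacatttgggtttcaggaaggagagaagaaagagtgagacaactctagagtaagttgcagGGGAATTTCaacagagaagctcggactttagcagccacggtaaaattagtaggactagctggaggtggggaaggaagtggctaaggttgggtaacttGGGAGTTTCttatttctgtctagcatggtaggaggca
Ifit3 holds 3 matches, which begin 155, 121 and 102 bases before the start, and Ifit1 holds 3, beginning 109, 103 and 84 bases before it, of which the first pair overlap. Gbp2 holds 1 match at 58 bases. Cxcl2 holds 1 match of the NF-kB-like string at 97 bases and Gpr84 holds 2, at 134 and 37 bases.

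Over windows of 300 bases (250 before to 50 after the start), the interferon-like string was present in 78 of the 463 genes called higher that have a window (16.8%), in 51 of 883 called lower (5.78%), in 601 of 8014 genes tested (7.50%) and in 8.57% of all 27025 windows. In the type I interferon list 13 of 22 members with a window held it. The NF-kB-like string was present in 15 genes called higher (3.24%), 6 called lower (0.680%) and 75 genes tested (0.936%). These are counts of letters in short windows and were not tested. The string is also found before genes that fell, such as Apoe, where it begins 122 bases before the start, and Spp1, at 156 bases.

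Of 25 interferon gamma response genes and GTPases, 20 were tested and 16 rose, with a median of 2.24. Of the 20, 4 would not have passed the filter in the untreated cultures alone. The largest were Upp1 (log2FC 4.05), a uridine phosphorylase, the guanylate-binding proteins Gbp7 (log2FC 3.62) and Gbp2 (log2FC 3.32), and Socs1 (log2FC 3.52). With edge and corner wells only, 11 of the list were called higher. MHC class I genes and their processing machinery rose in 14 of 18 cases, with a median of 1.50. H2-K1, a classical class I heavy chain, ranged from 294 to 2110.0 CPM with a median of 1378 in the untreated cultures and from 2921 to 7706 CPM with a median of 3676 with LPS_hi without overlap (log2 fold change 2.13 ± 0.12 SE, adjusted p = 1.1e-17, limma). H2-Q7, a non-classical member, had medians of 26.8 and 527 CPM (log2FC 5.33), and the peptide transporter Tap1 (log2FC 2.66) and the immunoproteasome subunit Psmb8 (log2FC 2.03) rose as well. MHC class II stayed low: 5 of 11 members were tested and none was called by limma, with 0 higher and 0 lower at an unadjusted p under 0.05 and 0 under 0.05 by the exact rank-sum test, and with H2-Aa at medians of 0.161 CPM untreated and 0 CPM with LPS_hi (log2 fold change -0.06 ± 0.22 SE, adjusted p = 0.88).

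Surface molecules moved in both directions. Among 17 co-stimulation and checkpoint genes, 12 were tested, 7 rose and 3 fell. Slamf7, an activating receptor of leukocytes, had medians of 4.87 and 162 CPM (log2FC 5.24), and Slamf9 (log2FC 4.35) and Cd38, an ectoenzyme that consumes NAD (log2FC 3.44), rose too. Cd274, the ligand PD-L1, had medians of 4.47 and 34.7 CPM (log2FC 2.82 ± 0.42 SE, adjusted p = 1.4e-06, limma). Havcr2 (TIM-3) fell by 2.26 and Icosl by 1.30 on the log2 scale, and the gene for VISTA was the other member that fell. Of 24 scavenger and C-type lectin receptors, 20 were tested, 9 rose and 5 fell. Mrc1, the mannose receptor, had the largest fall (log2FC -3.70 ± 0.32 SE, adjusted p = 2.2e-12), from a median of 35.6 to 1.81 CPM, followed by Trem2 (log2FC -3.38), Clec7a, the receptor of beta-glucan (log2FC -2.37), and Stab1 (log2FC -1.95).

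Fc receptors and complement divided as well, with 8 of 22 tested genes higher and 4 lower. Without the LPS_hi middle wells, and also with the pool of libraries as block, 7 were higher and 7 lower. Fcgr1, the high-affinity IgG receptor, went from a median of 50.9 to 316 CPM (log2FC 2.83), whereas Fcgr3, a low-affinity receptor, ranged from 483 to 783 CPM with a median of 636 in the untreated cultures and from 236 to 398 CPM with a median of 285 with LPS_hi (log2FC -1.09 ± 0.09 SE, adjusted p = 1.6e-12, limma). Neither gene's groups overlapped. Cfp, properdin, which stabilises the alternative complement pathway, ranged from 52.6 to 779 CPM with a median of 406 in the untreated cultures and from 1268 to 5009 CPM with a median of 3252 with LPS_hi (log2FC 2.93 ± 0.21 SE, adjusted p = 5.6e-15). C3 (log2FC 3.82) and Cfb (log2FC 4.74) rose, while the complement receptor subunit Itgax (log2FC -2.998) and C1qc (log2FC -1.34) fell. Of 19 sensors, 15 were tested and 4 rose, namely Zbp1, Tlr1 (log2FC 2.96), Nlrp3 (log2FC 2.55) and Tlr2 (log2FC 2.34), while Tlr13 fell (log2FC -1.41). In the inflammasome list 2 of 17 tested genes rose and 2 fell, beside 5.71% higher and 10.9% lower among all genes tested. Il1b and Nlrp3 were higher. Dfna5, the gene for gasdermin E (log2FC -1.42), and the ATP receptor P2rx7 (log2FC -1.15) were lower, though Dfna5 had the opposite sign on plate 1.

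Enzymes that make inflammatory mediators rose at some steps and fell at others. In the list of nitric oxide, itaconate and arginine metabolism, 6 of 12 tested genes rose, among them Irg1, Gch1, which makes the cofactor of nitric oxide synthase (log2FC 2.60), the arginine transporter Slc7a2 (log2FC 2.46) and Ass1 (log2FC 2.36). Nos2, the inducible nitric oxide synthase, was called higher with a log2 fold change of 1.06 ± 0.35 SE, adjusted p = 0.025 by limma, but its median was 0 CPM in both groups and its highest culture stood at 43.3 CPM. The prostaglandin and leukotriene list had 3 genes higher and 5 lower of 16 tested, and 3 higher and 3 lower with edge and corner wells only. Of the 16, 1 would not have passed the filter in the untreated cultures alone and 4 not in the LPS_hi cultures alone. Ptgs2, the inducible cyclooxygenase, had medians of 0.240 and 41.7 CPM (log2FC 4.57) and Ptges, the inducible prostaglandin E synthase, 3.94 and 188 CPM (log2FC 5.08). In contrast Ptgs1, the constitutive cyclooxygenase, fell (log2FC -3.41 ± 0.43 SE, adjusted p = 2.9e-08), as did Hpgd and the leukotriene genes Ltc4s (log2FC -1.29) and Alox5 (log2FC -1.17).

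Acute-phase and secreted defence genes numbered 9 higher and none lower of 14 tested, with a median of 2.48. Beside Lcn2 and Saa3 these included Cp, the ferroxidase ceruloplasmin, which ranged from 0.146 to 28.4 CPM with a median of 5.30 in the untreated cultures and from 103 to 446 CPM with a median of 164 with LPS_hi (log2FC 5.21 ± 0.34 SE, adjusted p = 6.9e-16, limma). Of 24 genes of NRF2 and metal handling, 6 rose and 4 fell, and 2 were lower without the LPS_hi middle wells or with the pool as block. Sod2, the mitochondrial superoxide dismutase, ranged from 36.97 to 188 CPM with a median of 98.1 in the untreated cultures and from 749 to 1576 CPM with a median of 1333 with LPS_hi (log2FC 3.80 ± 0.16 SE, adjusted p = 3.3e-22), and Hmox1, haem oxygenase, had medians of 1401 and 4533 CPM (log2FC 1.40). Slc40a1, the iron exporter ferroportin, had medians of 757 and 140.0 CPM (log2FC -2.79). Among matrix enzymes, Mmp9 differed between plates, with log2 differences of 6.71, -0.03, 0.87 and 7.43 on plates 1 to 4 and a level of 0.374 to 382 CPM in edge wells and 0 in the 3 middle wells, whereas Timp2, an inhibitor of matrix metalloproteinases, fell on every plate (log2FC -2.24).

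Genes of resting and of disease-associated microglia both fell. Of 24 homeostatic genes, 21 were tested, 13 fell and none rose, with a median of -1.43. Of the 21, 6 would not have passed the filter in the LPS_hi cultures alone. Olfml3 (log2FC -2.87 ± 0.36 SE, adjusted p = 2.2e-08, limma), the ADP receptor P2ry13 (log2FC -2.81), and the TGF-beta receptor Tgfbr1 (log2FC -2.20) fell most. Tmem119 had medians of 9.57 and 2.34 CPM (log2FC -1.43). P2ry12 was low throughout, at medians of 2.37 and 0 CPM, and at a log2 fold change of -0.86 ± 0.29 SE, adjusted p = 0.025 it missed the minimum fold. Cx3cr1, the fractalkine receptor, was called lower (log2FC -1.86 ± 0.54 SE, adjusted p = 0.0094), yet its differences on plates 1 to 4 were -0.97, -4.08, -2.63 and 0.72, so the fall was absent from plate 4. With edge and corner wells only, 8 homeostatic genes were called lower.

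The disease-associated list, genes that rise in microglia around plaques, had 15 of 22 tested members lower and 2 higher, with a median of -1.75. In 6 of them no LPS_hi culture reached the untreated range. Apoe, a lipid carrier, ranged from 14925 to 56911 CPM with a median of 36372 in the untreated cultures and from 2745 to 13665 CPM with a median of 6496 with LPS_hi (log2FC -2.67 ± 0.09 SE, adjusted p = 2.6e-25, limma). Igf1, a growth factor, ranged from 647 to 2235 CPM with a median of 1744 in the untreated cultures and from 50.5 to 268 CPM with a median of 134 with LPS_hi (log2FC -3.66). Spp1, osteopontin, ranged from 363 to 1038 CPM with a median of 513 in the untreated cultures and from 40.9 to 132 CPM with a median of 66.7 with LPS_hi (log2FC -3.21). Trem2, the lipid receptor through which this state is reached, ranged from 473 to 939 CPM with a median of 689 in the untreated cultures and from 11.3 to 280.3 CPM with a median of 66.3 with LPS_hi (log2FC -3.38 ± 0.26 SE, adjusted p = 4.0e-14). The members that rose were Ch25h, which makes 25-hydroxycholesterol (log2FC 1.82), and the chemokine Ccl6 (log2FC 1.44). Counts of 15 and 2 were also obtained with edge and corner wells only.

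Lipid and lysosomal genes fell in part. Lpl, lipoprotein lipase, had medians of 7265 and 661 CPM (log2FC -2.74 ± 0.21 SE, adjusted p = 3.5e-14, limma). In the list of LXR targets and lipid export, 5 of 13 tested genes fell, including Apoc2 (log2FC -2.34) and the desaturase Scd2 (log2FC -2.78), and Ch25h rose. Cholesterol and fatty acid synthesis had 5 of 21 lower, with Hmgcs1 (log2FC -1.43), Fdft1 (log2FC -1.38) and Idi1 (log2FC -1.33) among them, but 1 with edge and corner wells only. Among all genes tested 10.9% were lower, and 4 of the 21 would not have passed the filter in the LPS_hi cultures alone. Of 30 lysosomal genes, 12 fell and 1 rose, with a median of -0.66. Man2b1, a lysosomal mannosidase, ranged from 494 to 1368 CPM with a median of 842 in the untreated cultures and from 34.9 to 468 CPM with a median of 269.5 with LPS_hi (log2FC -1.79) and did not overlap. Atp6v0d2, a proton pump subunit (log2FC -3.88), and Tfeb, the transcription factor of lysosomal genes (log2FC -1.80), fell as well, and the protease Ctsc rose (log2FC 1.65).

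Of 23 glycolysis and hypoxia genes, 5 rose and none fell (median 0.78), among them Adm, the hypoxia-responsive peptide adrenomedullin (log2FC 3.89), Hif1a (log2FC 1.50) and the glycolytic enzyme Eno1 (log2FC 1.29). In the nuclear-encoded respiratory chain 1 of 27 rose, Uqcrq (log2FC 1.15), and 1 fell, Ndufa4 (log2FC -1.11). These counts do not exceed the shares over all genes tested, 5.71% higher and 10.9% lower. Of 17 mitochondrially encoded genes tested, 11 fell and none rose, with a median of -1.48. Among apoptosis regulators, 8 of 23 rose, led by Bcl2a1a (log2FC 4.66), Mlkl, the effector of necroptosis (log2FC 3.42), and Traf1 (log2FC 3.20), while the pro-apoptotic Bcl2l11 fell (log2FC -1.999). Purinergic and cAMP-linked receptors had 5 genes higher and 5 lower of 18 tested, beside 5.71% and 10.9% of all genes tested. Of the 18, 3 would not have passed the filter in the untreated cultures alone and 5 not in the LPS_hi cultures alone. Gpr84, a receptor of medium-chain fatty acids whose upstream window is shown above, ranged from 0 to 5.28 CPM with a median of 1.35 in the untreated cultures and from 7.84 to 75.6 CPM with a median of 34.1 with LPS_hi (log2FC 4.13 ± 0.32 SE, adjusted p = 6.4e-14, limma). TGF-beta signalling genes had 5 lower and none higher of 16, including Smad7 (log2FC -1.53), which was lower on 3 of 4 plates. Of this list, 2 genes were called lower with edge and corner wells only and 3 with the library pool as block. In the list of genes linked to the stress of cell handling, 6 of 13 tested genes rose, including Fos (log2FC 1.30), Junb (log2FC 1.48) and the heat shock gene Hspa1a (log2FC 1.96), and Jun fell (log2FC -1.02).

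Proliferation genes differed between plates. All untreated middle wells were on plate 2, so plate and position cannot be told apart among the untreated cultures. Of 26 genes tested, 10 of which would not have passed the filter in the LPS_hi cultures alone, 8 were lower and 1, Ccnd2 (log2FC 2.31), was higher, but the list median was -2.72 on plate 2 against 0.005, -0.10 and -0.16 on plates 1, 3 and 4. Top2a, a topoisomerase of dividing cells, stood at 261 to 463 CPM in untreated middle wells, all on plate 2, and at 0 to 71.7 CPM in untreated edge wells, and was not called (log2 fold change -1.52 ± 0.61 SE, adjusted p = 0.070). With edge and corner wells only, 2 genes of the list were called lower. Ccnd1, cyclin D1 (log2FC -2.18), and the replication factors Mcm7 (log2FC -2.07), Mcm2 (log2FC -1.78) and Cdt1 (log2FC -1.52) carried the largest falls.

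The gene modules of the study were read in the same way, although the study built them on cultures of this series, so their counts are not independent evidence of direction. BR_turquoise, whose hub is Ifit3, had 107 of 147 tested genes higher (median log2FC 1.80), and in CY_turquoise, whose hub is Clec4e, 36 of 38 were higher (median log2FC 2.56). In YE_turquoise, with the hub Irak3, 57 of 104 were higher (median log2FC 1.22). PI_turquoise, with the hub Naaa, had 7 higher and 2 lower of 34 (median log2FC 0.18), and 4 and 1 with edge and corner wells only. The largest module with falls was TQ_turquoise, where 100 of 143 genes were lower and none higher (median log2FC -1.43), and in TQ_magenta 30 of 34 were lower (median log2FC -2.19). In TQ_black 31 of 38 were lower over all wells and 16 with edge and corner wells only. The filter on low values would not have been passed in the LPS_hi cultures alone by 19 of these 38 genes. The same held for 17 of the 143 genes of TQ_turquoise and 8 of the 34 of TQ_magenta.

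To ask which responses depend on time, the effect of LPS_hi at 72 h was compared with its effect at 24 h, each against untreated wells of its own time. The interaction was called positive for 515 of 12506 genes (4.12%) and negative for 344 (2.75%). With another scaling of the libraries (median ratios) the split was 337 and 502, with the median of all genes at -0.02 in place of 0.11. The 24 h cultures came from other plates and mostly from other cell lots, so time, plate and lot cannot be told apart beyond what the untreated wells take up. Well position differed too. Edge or corner wells held 6 of 18 LPS_hi and 10 of 40 untreated cultures at 24 h, against 10 of 13 and 15 of 25 at 72 h. The part of well position in the time differences was not tested. With the 24 h cultures of the 72 h lot alone, which sat on 1 plate, 89 and 58 genes were called. Among these were 55 of the 515 positive and 42 of the 344 negative differences. Of the genes named below for the largest differences, Ctif, Prc1, Cd109, H2-M2 and Sema4a missed the thresholds in that fit.

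The inducible nitric oxide synthase Nos2 had the most negative difference. It stood at 63.4 to 2055 CPM with a median of 617 after 24 h of LPS_hi and at 158 to 796 CPM with a median of 429 after 4 h, but at 0 to 43.3 CPM with a median of 0 after 72 h (difference of log2 fold changes -5.87 ± 0.42 SE, adjusted p = 5.4e-21, limma). No 72 h LPS_hi culture reached the 24 h range. Cxcl11, a chemokine of the interferon response, had medians of 152 CPM at 24 h and 0.127 CPM at 72 h (difference -4.98). Similar pairs of medians were 549.8 and 0.316 CPM for H2-M2 (difference -4.54), a non-classical class I gene, 1423 and 47.2 CPM for Sema4a (difference -4.02), a semaphorin, and 30.7 and 0 CPM for Rasgrp1 (difference -3.95), an activator of Ras. Traf1, an adaptor of TNF receptors, had a positive response at both times that was smaller at 72 h (difference -2.59 ± 0.43 SE, adjusted p = 3.4e-06).

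Genes with a more positive response at 72 h were led by Sh2d3c, Ctif, Klf2, Prc1 and Cd109. Klf2, a transcription factor that restrains inflammatory gene expression in myeloid cells, ranged from 1.9968 to 54.99 CPM with a median of 30.5 in the untreated cultures and from 51.4 to 238 CPM with a median of 109 with LPS_hi, whereas at 24 h its medians were 31.4 CPM untreated and 18.1 CPM with LPS_hi (difference 3.34 ± 0.38 SE, adjusted p = 7.7e-11, limma). Its rise at 72 h held for 12 of 13 cultures above all untreated ones. Sh2d3c had a median of 4.68 CPM with LPS_hi at 24 h and 44.1 at 72 h, against 45.2 and 45.1 CPM untreated (difference 3.56). It was not called at 72 h alone, nor were Prc1 (difference 3.24), a protein of the dividing spindle, or Cd109 (difference 3.21). Ctif, a translation initiation factor, had a difference of 3.54. Cfp had medians of 663 and 537 CPM at 24 h untreated and with LPS_hi over all plates, but the log2 fold change fitted within plates was 0.50, of the opposite sign, and the LPS_hi median was the higher one on 5 of 6 plates. The rise at 72 h exceeded the effect at 24 h by a log2 difference of 2.43 ± 0.22 SE, adjusted p = 1.1e-15.

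Some genes already differed from untreated at 24 h, by values that are given without a test of their own. Apoe had log2 fold changes of -1.56 at 24 h and -2.67 at 72 h (difference -1.10 ± 0.14 SE, adjusted p = 9.8e-10, limma), and Spp1 -1.88 and -3.21 (difference -1.34). Lcn2 (6.40 and 7.04), Saa3 (6.14 and 6.62) and Irf7 (5.20 and 5.45) had log2 fold changes at the 2 times whose difference was not called. In the list of chemokines, 8 of 20 tested differences were negative and 1 positive, and among cytokines 7 of 20 were negative and 1 positive. Of the type I interferon response genes 9 of 32 differences were negative and none positive. For proliferation 7 of 27 were positive, for homeostatic genes 4 of 22 were positive, and no difference was negative in either list. Levels of such genes differed by well without LPS_hi. In untreated cultures of 72 h, Top2a stood at 0 to 71.7 CPM in edge wells and 261 to 463 CPM in middle wells, all on plate 2. The part of well position in these counts was not tested.

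Levels at 4 h were set beside these without a test, as mean ± SD over the 7, 18 and 13 LPS_hi cultures of 4, 24 and 72 h. Tnf stood at 17588 ± 4251 CPM at 4 h, 1488 ± 401 CPM at 24 h and 473 ± 246 CPM at 72 h, against 46.4 ± 31.7 CPM in the untreated cultures of 72 h. Cxcl10, an interferon-induced chemokine, was at 3409 ± 441, 535 ± 238 and 27.3 ± 16.9 CPM. Both were thus highest at 4 h. Lcn2 had the opposite order, with 17.9 ± 17.9, 757 ± 729.5 and 1660.3 ± 1201 CPM, as had Saa3, with 289 ± 55.5, 4713 ± 4125 and 5811 ± 3359.5 CPM, and Clec4a1, with 333 ± 90.2, 2323 ± 1256 and 3661 ± 1564 CPM. For these 3 genes the means of 24 and 72 h differed by less than 1 SD of the 72 h cultures. Irak3 was lowest at 4 h, at 30.2 ± 15.9 CPM, and its means at 24 h (187 ± 63.02 CPM) and 72 h (145 ± 74.5 CPM) lay within 1 SD of each other. No plate held cultures of both 72 h and an earlier time, and the cultures of 4 h and 72 h shared no cell lot. Time, plate and lot cannot be told apart in these levels. Edge or corner wells held 2 of the 7, 6 of the 18 and 10 of the 13 cultures, and their part was not tested.

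**Figure D4:**
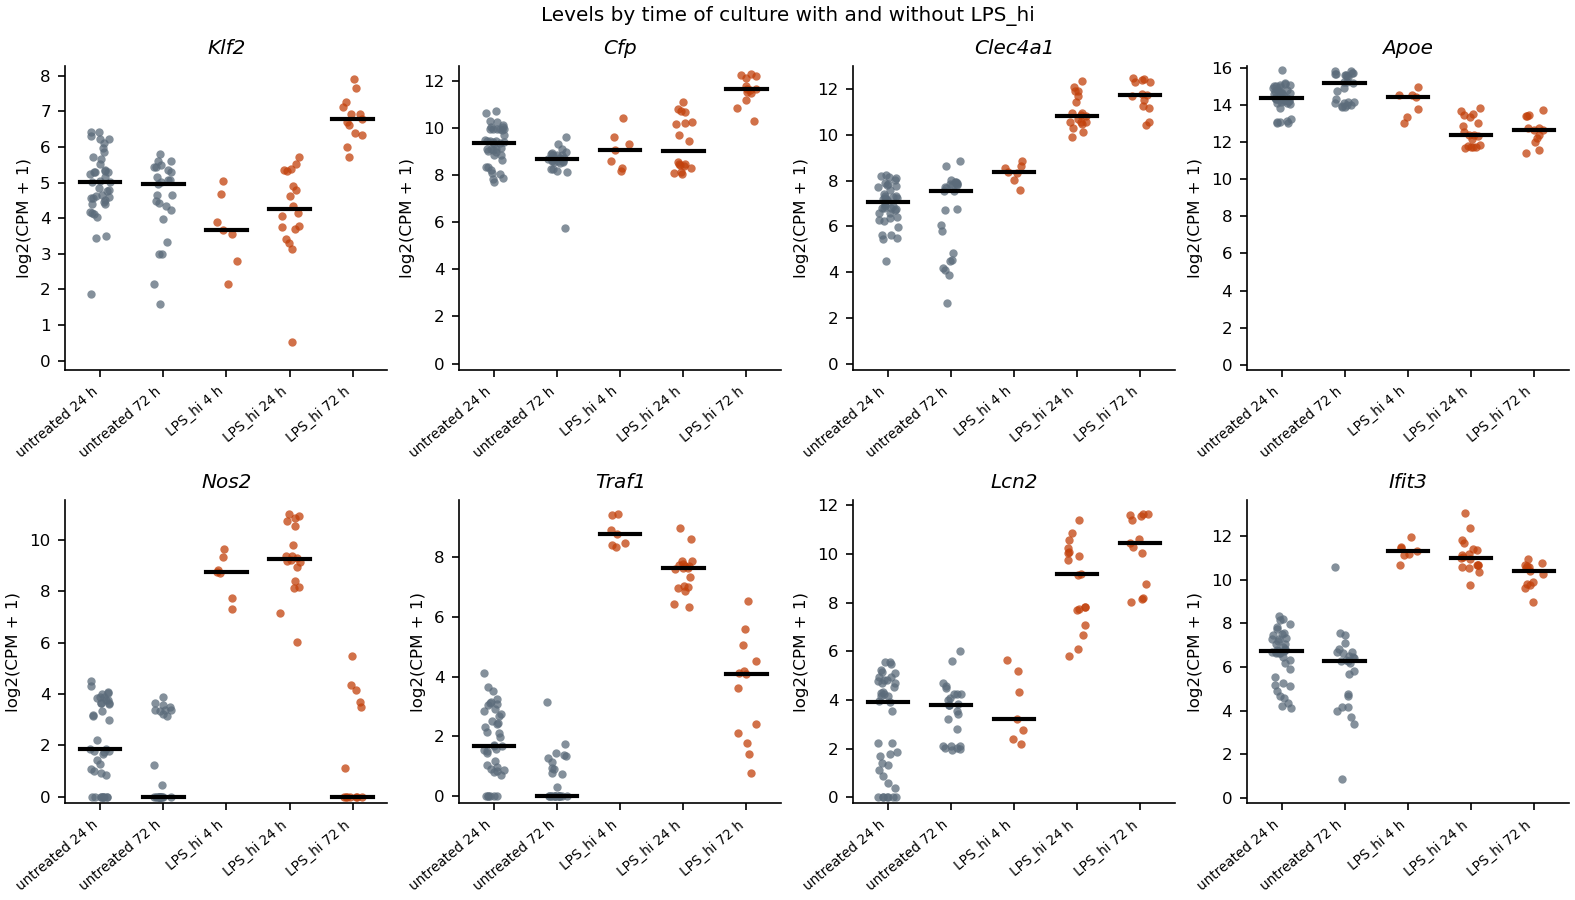
Each point is 1 culture, plotted as log2(CPM + 1), for untreated cultures at 24 h (40) and 72 h (25) and LPS_hi cultures at 4 h (7), 24 h (18) and 72 h (13); bars are group medians and the 8 genes were picked after their values were seen. Nos2 with LPS_hi went from a median of 617 CPM at 24 h to 0 at 72 h, whereas Klf2 and Cfp lie highest at 72 h with LPS_hi.

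The dose and the ligand were compared at 72 h in 1 fit that also held the 25 untreated cultures. LPS_hi against LPS_lo gave 70 genes higher with LPS_hi (0.600% of 11657) and 164 lower (1.41%). LPS_hi against P3C gave 193 higher (1.66%) and 305 lower (2.62%). The wells differed between these groups: 9 of 11 LPS_lo cultures and 6 of 6 P3C cultures came from middle wells, while on the plates they share all LPS_hi cultures came from edge wells. The 2 LPS_lo cultures from edge wells, on plates 1 and 2, sat on plates with 4 LPS_hi edge wells, so dose and position overlap only in part, whereas no P3C culture came from an edge well. With a term for edge wells, chosen after seeing the data, 75 genes were higher and 139 lower for the dose, among them 50 of the 70 and 84 of the 164. For the ligand, 248 were higher and 381 lower, among them 172 of the 193 and 231 of the 305. Ranges are given by position where they matter. The LPS_hi middle wells were all on plate 3, which held no LPS_lo or P3C culture. Middle wells of LPS_hi and of the other groups therefore differ in plate and library pool as well.

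Irf7 had medians of 1129.5 CPM with LPS_hi and 1189 CPM with LPS_lo (log2 difference 0.26 ± 0.34 SE, adjusted p = 0.82, limma), Ifit3 of 1371 and 1707 CPM (log2 difference -0.36 ± 0.45 SE, adjusted p = 0.81), and none of the 32 genes of the type I interferon list was called in either direction by limma, with 0 higher and 7 lower at an unadjusted p under 0.05. Of 27 cytokine genes, 16 were tested for the dose, and 5 of them were higher with LPS_hi and 1 lower. Il1b ranged from 32.8 to 563 CPM with a median of 127 with LPS_hi and from 4.54 to 38.8 CPM with a median of 26.4 with LPS_lo (log2 difference 2.84 ± 0.43 SE, adjusted p = 1.2e-05). Its ranges by well were 32.8 to 563 CPM for LPS_hi edge wells, 33.999 to 44.8 for LPS_hi middle wells and 20.6 to 38.8 for LPS_lo middle wells, the last pair overlapping. In the edge wells of plates 1 and 2 it stood at 56.5 to 201 CPM with LPS_hi and 4.54 to 12.9 CPM with LPS_lo. With the term for edge wells the difference was 3.18 ± 0.47 SE, adjusted p = 5.9e-06. Tnf, with medians of 602 and 307 CPM, was not called (log2 difference 1.05 ± 0.46 SE, adjusted p = 0.27). By well it stood at 303 to 763 CPM for LPS_hi edge wells, 85.8 to 150.2 for LPS_hi middle wells and 252 to 402 for LPS_lo middle wells. The LPS_hi middle wells thus lay below those of the lower dose, which sat on other plates. In the edge wells of plates 1 and 2 the order was the reverse, at 476 to 672 CPM with LPS_hi and 136 to 239.7 with LPS_lo.

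The largest differences between the doses were those of Cxcl2 (log2 difference 4.41 ± 0.83 SE, adjusted p = 5.1e-04, limma), U90926 (log2 difference 4.26), a transcript of unknown role, Slpi, a protease inhibitor (log2 difference 3.88), Il1a (log2 difference 3.70) and Serpinb2 (log2 difference 3.68). Cxcl2, U90926 and Serpinb2 were at 0 in the 3 LPS_hi middle wells. Genes higher with LPS_lo were led by Sh2d3c (log2 difference -3.40), Cd5l (log2 difference -3.09), Tmem176b (log2 difference -3.04), Fgl2 (log2 difference -2.88) and Ccnd1 (log2 difference -2.86). Fgl2, a fibrinogen-like immune regulator, stood at 0 to 53.8 CPM in LPS_hi edge wells, 162 to 229.7 CPM in LPS_hi middle wells, 135 to 254 CPM in LPS_lo middle wells and 8.07 to 50.4 CPM in LPS_lo edge wells. With the term for edge wells neither Fgl2 (log2 difference -1.12 ± 0.55 SE, adjusted p = 0.35) nor Tmem176b (log2 difference -1.09 ± 0.68 SE, adjusted p = 0.50) was called. Lcn2 was higher with LPS_hi (log2 difference 2.91 ± 0.33 SE, adjusted p = 1.1e-08), at 433 to 3171 CPM in edge wells and 255 to 289 in middle wells, beside 155 to 393 CPM in LPS_lo middle wells. In the edge wells of plates 1 and 2 it stood at 1036 to 3077 CPM with LPS_hi and 320.3 to 620.3 CPM with LPS_lo, and with the term for edge wells the difference was 2.72 ± 0.36 SE, adjusted p = 5.0e-07.

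Among 22 disease-associated genes tested, 8 were lower with LPS_hi than with LPS_lo and none higher. Igf1 had medians of 134 and 440.2 CPM (log2 difference -1.78 ± 0.19 SE, adjusted p = 6.4e-09, limma). Trem2 had medians of 66.3 and 211 CPM (log2 difference -1.66 ± 0.29 SE, adjusted p = 1.2e-04), and the untreated median was 689 CPM. Middle wells overlapped, at 72.1 to 280.3 CPM with LPS_hi and 129 to 245 CPM with LPS_lo, and the edge wells of plates 1 and 2 did not, at 60.7 to 142 and 307 to 379 CPM. With the term for edge wells the difference of Trem2 was -1.45 ± 0.31 SE, adjusted p = 0.0028 and that of Igf1 -1.84 ± 0.21 SE, adjusted p = 1.4e-08. The co-receptor Cd14 had medians of 150.0 and 94.01 CPM (log2 difference 1.55 ± 0.27 SE, adjusted p = 1.4e-04), and 105 to 122 and 56.8 to 107 CPM in the middle wells, whose ranges overlapped. In the edge wells of plates 1 and 2 Cd14 stood at 130 to 349 CPM with LPS_hi and 123 to 175 CPM with LPS_lo, which also overlapped. With the term for edge wells its difference was 1.69 ± 0.30 SE, adjusted p = 1.9e-04 by limma.

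The 2 ligands were set apart by the interferon response. Of 32 type I interferon response genes 31 were higher with LPS_hi than with P3C and none lower, with a median log2 difference of 3.17. The 5 largest differences were those of Slfn4 (log2 difference 6.47 ± 0.45 SE, adjusted p = 1.4e-16, limma), Oasl1 (log2 difference 6.34), Slfn1 (log2 difference 5.29), Ifit3 (log2 difference 5.13) and Pyhin1 (log2 difference 5.01), an interferon-inducible member of the HIN-200 family. With P3C, Ifit3 ranged from 8.22 to 93.7 CPM with a median of 78.998, within the untreated range of 0.835 to 1538 CPM, and the lowest LPS_hi culture stood at 504 CPM. Ifit3 in LPS_hi wells ran from 504 to 1998 CPM at the edge and from 1371 to 1759 CPM in the middle, so each position lay above the P3C cultures. Fcgr1 (log2 difference 2.36) and Ccl5 (log2 difference 2.99) were higher with LPS_hi as well, and 9 of 18 class I genes were higher, with H2-K1 at 1.56.

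In the list of NF-kB subunits and inhibitors, 2 of 18 genes were higher with LPS_hi than with P3C and none lower. Tnf had medians of 602 CPM with LPS_hi and 1094 CPM with P3C (log2 difference -0.63 ± 0.55 SE, adjusted p = 0.61, limma), Saa3 of 5476 and 8152 CPM (log2 difference 0.17 ± 0.47 SE, adjusted p = 0.90) and Clec4e of 158 and 192 CPM (log2 difference 0.55 ± 0.50 SE, adjusted p = 0.63). None of these 3 passed. The fitted differences of Saa3 and Clec4e, which are taken within plates, have the opposite sign to the medians. Tnf ranged from 797 to 1214 CPM with P3C, all in middle wells, above every LPS_hi culture (85.8 to 763 CPM). Il1b did pass, with medians of 127 and 15.9 CPM (log2 difference 3.90 ± 0.52 SE, adjusted p = 1.4e-07, limma). Higher with P3C was Ndrg1, a stress- and hypoxia-responsive gene, at 177 to 575 CPM with a median of 513 against 0 to 50.4 CPM with a median of 8.58 with LPS_hi (log2 difference -5.27 ± 0.65 SE, adjusted p = 2.1e-08). Tmem176b (log2 difference -4.75), Scd2 (log2 difference -4.66), the pseudogene Rpl23a-ps3 (log2 difference -4.63) and Tmem176a (log2 difference -4.46) followed. Tmem176b also differed by well in untreated cultures, at 0 to 143 CPM in edge wells and 279 to 410 CPM in middle wells, all on plate 2. With the term for edge wells its difference from P3C was -2.75 ± 0.80 SE, adjusted p = 0.024 by limma. Of 23 glycolysis and hypoxia genes, 9 were lower with LPS_hi than with P3C and none higher.

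**Figure D5:**
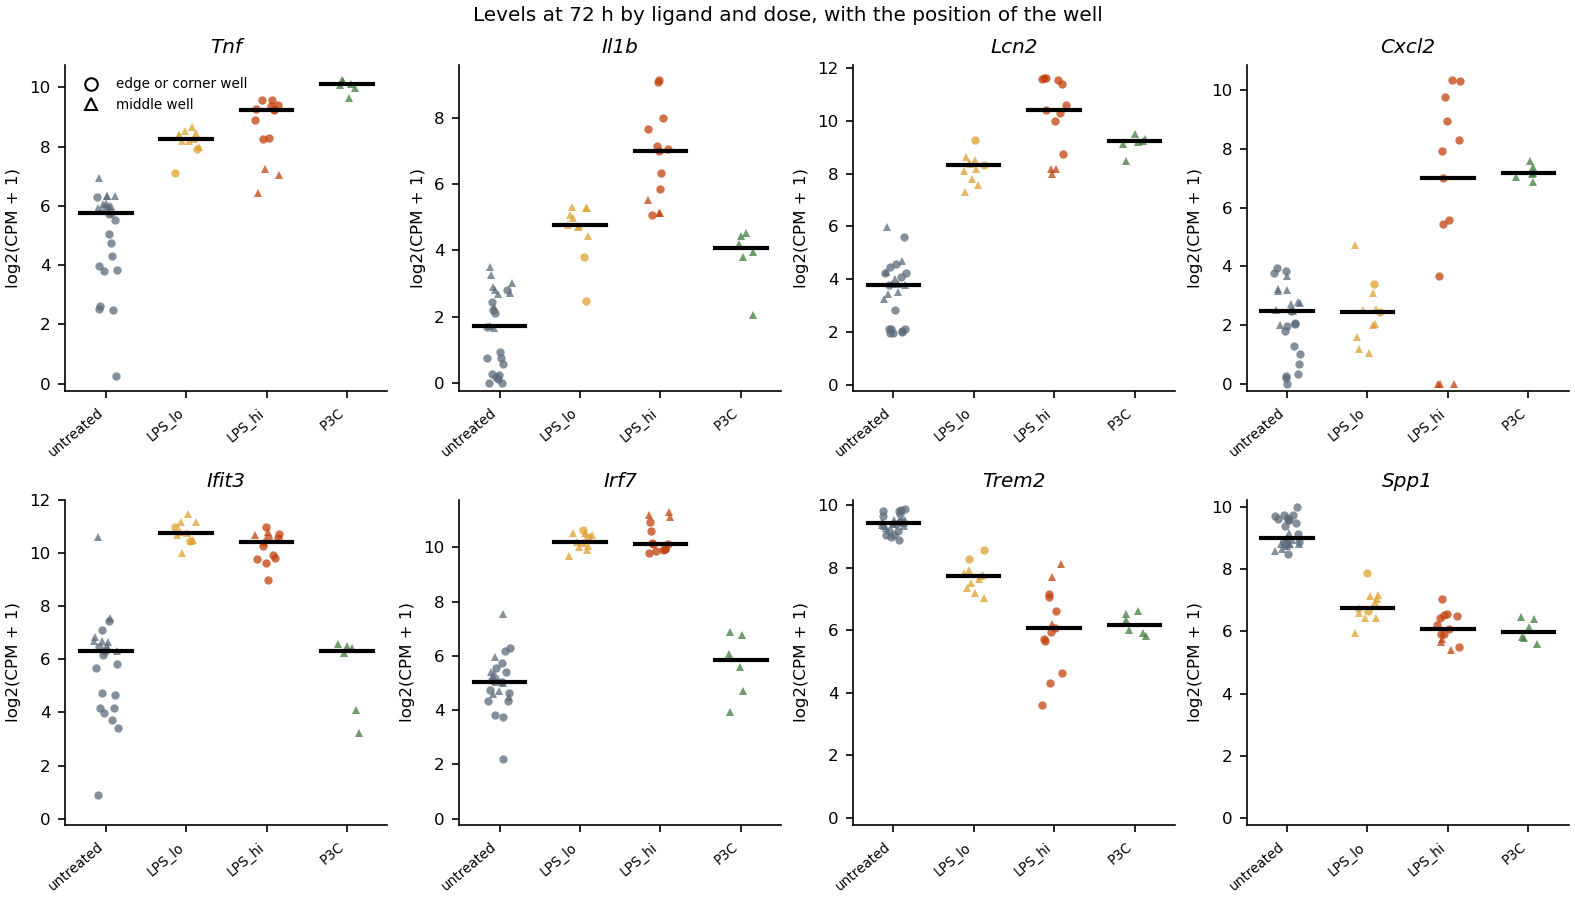
Each point is 1 culture at 72 h, plotted as log2(CPM + 1), for the untreated (25), LPS_lo (11), LPS_hi (13) and P3C (6) cultures; circles are edge or corner wells, triangles middle wells and bars group medians, and the 8 genes were picked after their values were seen. Ifit3 and Irf7 lie near the untreated level with P3C, and Tnf, Lcn2 and Cxcl2 of the LPS_hi middle wells lie below those of the edge wells.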

How the data were processed

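Values are CPM from 3′-end RNA-seq of cultured primary mouse microglia. As far as the study's methods state, the authors added the stimulus 4 days after plating, amplified RNA with T7 polymerase in pools of libraries, made QuantSeq libraries, quantified them with Salmon 0.7.1 by quasi-mapping to Ensembl build 81, summed transcripts to genes and divided by the total of mapped reads. The deposited table therefore holds CPM although the methods call the values TPM, and every column used sums to nearly 1000000. The submitters' processing notes name mm8, and no coordinates were taken from the table. Per the study's methods, cultures with too few mapped reads or expressed genes had been dropped before deposit. Of the value columns, 121 were used and 663 were not.

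Groups came from the labels of dose and duration; 1 culture labelled LPS_hi carries the dose of LPS_lo and entered no group. The plate, cell lot, pool and well came from header rows of the table. Depth was inferred by taking the commonest nonzero value of a culture as 1 read. In the LPS_hi and untreated 72 h cultures, 72.6% to 83.7% of the low nonzero values, those worth few reads, were then whole numbers within 0.1. These were too few for a count test. Depth was otherwise not used. Genes above 5 CPM in at least 4 cultures of a fit were tested on log2(CPM + 1) with limma 3.58.1 (lmFit, eBayes with trend, two-sided) in R 4.3.3, with the plate as a fixed term and Benjamini-Hochberg adjustment over all genes tested. The interaction of time used 96 cultures, and dose and ligand shared a fit of 55. Other steps used Python 3.11.15, numpy 2.4.6, pandas 2.3.3, scipy 1.17.1 and matplotlib 3.10.9. The scripts were tested on simulated data with known changes.

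The comparison, gene lists, markers and tests were chosen with earlier results of these data known. Genes were named by a rule: 6 genes of the study, the 10 largest rises and falls with at least 20 CPM and 1 sign on the 4 plates, up to 4 called members of a list in each direction, and the 5 largest differences in each direction for time, dose and ligand, predicted genes left out. Cxcl1, Cxcl10, Flt1, Fos, Fth1, H2-Aa, Il6, Ly96, Mbp, mt-Nd3, P2ry12, Pf4, Prdx5, Rsad2, Tlr4, Tnfaip3, Top2a and Tubb3 lie outside this rule and, like the choice of genes drawn over time and ligand, were picked after their values were seen. Values of some genes are not reported here. Upstream windows are those of RefSeq on GRCm38.p6, found for 140 of 179 named genes. Alternatives were another pseudocount, filter, scaling, block (plate, pool or none), test, minimum fold, and leaving out plates or shallow cultures. A term for edge wells, each plate alone, edge and corner wells only, the 24 h cultures of the 72 h lot, and leaving out untreated replicate 10 or the LPS_hi middle wells were chosen after seeing the data. Intervals and p-values cover the spread between wells.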

Additional observations from a re-analysis of the deposited data

Results flagged for a closer look

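In the 7 LPS_hi cultures of 4 h, Irak3 stood at 64.8 CPM in the highest culture and at 32.7 CPM in the next, a gap that was a larger share of the group's range than Dixon's test allows. About 1 in 20 groups is flagged in this way by chance.

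The response to LPS_hi differed between 72 h and 24 h by the test of the interaction for the genes with the largest differences. The differences of log2 fold changes were 3.56 for Sh2d3c, 3.54 for Ctif, 3.34 for Klf2, 3.24 for Prc1 and 3.21 for Cd109. They were -5.87 for Nos2, -4.98 for Cxcl11, -4.54 for H2-M2, -4.02 for Sema4a and -3.95 for Rasgrp1. The plate, cell lot and share of edge wells changed with the time, and their part in these differences was not tested beyond the fit on 1 lot. In that fit Ctif, Prc1, Cd109, H2-M2 and Sema4a missed the thresholds.

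A single culture on plate 4, an edge well, is labelled LPS_hi but carries the dose of LPS_lo, and it was kept out of every group. It stood above the highest untreated culture of its plate for Ifit3 (1048 CPM against 25.7), Clec4e (36.8 against 2.75), Irak3 (115.7 against 25.5), Tnf (88.96 against 60.2), Il1b (60.1 against 5.94), Lcn2 (407 against 21.1) and Saa3 (1223 against 36.4). For Clec4e, Irak3, Tnf, Il1b, Lcn2 and Saa3 it lay below the LPS_hi cultures of plate 4, whose lowest values were 229, 158, 312, 258, 2683 and 5399 CPM. The LPS_lo cultures of that plate, all in middle wells, reached 33.7 CPM of Clec4e, 32.6 of Il1b and 326 of Lcn2, below the single culture, and began at 294 CPM of Tnf and 2662 of Saa3, above it. It is 1 culture, and no test was run.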

How the results depend on the processing

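In 72 h LPS_hi against untreated, genes called lower numbered 645 with a pseudocount of 5, 793 without plate 2 and 648 with edge and corner wells only, and the exact rank-sum test within plates with Bonferroni adjustment called 247 higher and 173 lower. Without plate 2, 504 of the 634 higher and 733 of the 1209 lower genes were called again. Without a minimum fold, 897 were higher and 1600 lower. The time comparison gave 328 positive and 559 negative differences with no plate term, 330 positive with a pseudocount of 5, 337 positive and 502 negative with median-ratio scaling, and 89 and 58 with the 24 h cultures of the 72 h lot. For the dose, 46 genes were higher and 338 lower with no plate term, and 62 were lower with the library pool as block and 106 without a filter. For the ligand, 626 were lower with no plate term and 114 with the pool as block. With a term for edge wells the dose gave 75 higher and 139 lower genes and the ligand 248 and 381. The cause of these shifts was not tested. The pool sets LPS_lo and P3C apart from LPS_hi on plate 4. Over the alternatives that have a test, the 158 genes named for 72 h gave 2983 values, of which 2781 stayed past the thresholds, 202 in 61 genes did not, and 0 changed sign. Most of these genes were named because they passed the reported fit. The rank-sum test was set beside the fold change of that fit, so there the sign could not change. For time, 6 of 89 values of the 10 named genes missed the thresholds, those of Ctif, Cd109, H2-M2, Sema4a and Prc1 with the 24 h cultures of the 72 h lot and of Prc1 with no plate term. For the dose 5 of 80 did, those of Sh2d3c and Tmem176b with the pool as block, Tmem176b without a filter, and Tmem176b (-1.09) and Fgl2 (-1.12) with a term for edge wells. For the ligand 5 of 80 did, all of Rpl23a-ps3 or Tmem176a. Of the 632 values within single plates, 12 had the opposite sign: on plate 1 Dfna5 (1.27), Ccl6 (-0.24), P2ry6 (0.11) and Zbtb46 (0.048), on plate 2 Mmp9 (-0.034), Gclc (0.49), Cat (0.60) and Smad7 (0.19), and on plate 4 Timp1 (-0.16), Ddit3 (-0.25), Jun (0.055) and Cx3cr1 (0.72). No culture was nearer to the other group's mean profile, so leaving such cultures out gave no value. No paired analysis was possible because the labels give no replicate numbers. All 72 h cultures are wells of 1 cell lot, well position and library pool are unevenly spread over the groups, and genes at a few CPM rest on few reads.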

Other observations

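Further members of the pathways above moved with 72 h of LPS_hi. In iron and redox metabolism, the cystine transporter Slc7a11 (2.11), glutathione reductase Gsr (1.17), peroxiredoxin Prdx5 (1.11) and the ferritin heavy chain Fth1 (1.10) were called higher by limma, and metallothionein Mt1 (-1.47) was called lower, the values being log2 fold changes. Among receptors of small molecules, the adenosine receptor Adora2b (2.24), the niacin receptor Hcar2 (2.25) and the phosphodiesterase Pde4b (2.71) were called higher, whereas Gpr183, which senses oxysterols (-3.07), and Entpd1, the ectonucleotidase CD39 (-2.51), were called lower. Gpr183 stood at a median of 16.1 CPM untreated and 0.187 CPM with LPS_hi, and Ch25h, which makes the precursor of its ligand, at 1.99 and 7.47 CPM. Among matrix enzymes Mmp14 rose (2.55), from a median of 3.88 to 29.3 CPM.

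Untreated replicate 10 had Rsad2, an interferon-induced antiviral gene, at 379 CPM against at most 103 CPM in the other untreated cultures. The summed interferon gamma response list was at 886 CPM in it, within the 254 to 913 CPM of the others. It was the highest untreated culture for 529 of the 11108 genes tested, and 8 genes above 20 CPM stood there at more than 4 times the next culture, of which 7 were among the genes called higher with LPS_hi and 4 in the type I interferon list.

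The plates differed for some genes. The log2 differences on plates 1 to 4 were 4.15, -0.37, 0.92 and 5.46 for Cxcl1, a neutrophil chemokine, and 3.43, -3.16, -7.10 and -1.80 for mt-Nd3, a mitochondrially encoded subunit of complex I. The part of well position in these differences was not tested.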
